A study of Homo sapiens with 2 samples.

Results

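The 42 genes described here encode the machinery that brings proteins into the endoplasmic reticulum (ER), glycosylates, folds and checks them, senses unfolded protein and sends failed products to the proteasome. They were chosen by name from the deposited count table, which holds 39720 gene symbols, and all 42 were found. RNA was sequenced from A549 cells, a human lung adenocarcinoma line, infected with lentivirus carrying either a negative control hairpin (shNC) or a hairpin against DEPDC1B (shDEPDC1B). Both cultures received polybrene at 5 µg/mL and were harvested on day 2. The study asks what DEPDC1B, a DEP domain protein, does in lung adenocarcinoma cells. Each group has 1 library from this 1 cell line, so differences could not be checked against replicates, no test was run, and the values compare 2 libraries rather than 2 conditions. The sources used here state neither the hairpin sequences nor any selection of infected cells.

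Secretory and membrane proteins enter the ER through the SEC61 channel, where the oligosaccharyltransferase attaches a preassembled glycan to asparagine residues. Protein disulfide isomerases, the lectin chaperones calnexin and calreticulin, and luminal chaperones then fold them, and UGGT1 sends glycoproteins that are still misfolded back to the lectins. Sensing by ATF6, IRE1 (gene ERN1, whose substrate is the XBP1 mRNA) and PERK (gene EIF2AK3) matches this capacity to load, and ER-associated degradation (ERAD) removes what cannot be folded. A lung epithelial cell line uses the same apparatus for its surface receptors, matrix proteins and secreted proteins.

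The library sizes were 18647290 counts for shNC and 18862371 for shDEPDC1B. The targeted gene DEPDC1B had 329 counts in shNC and 39 in shDEPDC1B, which leaves 12.5% [8.75, 17.5] of the control level. Square brackets hold exact 95% intervals of counting error throughout. Ratios are those of shDEPDC1B over shNC after TMM scaling, and CPM are the counts scaled to library size in the usual way. A gene was assessed at 30 counts or more in its higher library, which 13850 genes and all 42 members passed, and the lowest count of any member in either library was 209. It was called higher or lower where it differed at least 1.5-fold and its interval did not reach equality. All 6 epithelial and A549 markers were assessed, from EPCAM with 37 and 65 counts in shNC and shDEPDC1B to KRT8 with 106007 and 103507. Leukocyte, endothelial and fibroblast markers were at or near 0, with at most 14 counts for any of 10 genes. Of 4 plasma cell markers MZB1 and JCHAIN had at most 8 counts, while SDC1, which epithelial cells also express, had 4005 and 4698. The fourth, PRDM1, a transcription factor not limited to plasma cells, had 195 and 102 counts (-0.86 [-1.22, -0.50]), and its part in the results was not tested.

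Of the 42 members, 14 were called higher in shDEPDC1B and 3 lower, while 25 were within 1.5-fold. The higher genes were SSR2, SSR4, DDOST, OSTC, P4HB, PDIA5, CALR, HYOU1, CRELD2, SDF2L1, EDEM2, DERL1, DERL2 and OS9, and the lower ones EIF2AK3, SEL1L and EDEM3. Among all assessed genes 19.2% were called higher and 19.6% lower, so the members' share of higher genes (33.3%) lay above the background and their share of lower genes (7.14%) below it. At 2-fold, 3 members were higher (EDEM2, CRELD2 and SDF2L1) against a background of 5.86%, and 2 were lower (EIF2AK3 and SEL1L) against 8.97%. At any fold, intervals lay wholly above equality for 27 members (background 38.9%) and wholly below it for 13 (background 34.9%). The median log2 ratio of the members was 0.31, beside 0.04 for all assessed genes. With a trend on mean expression subtracted, 12 members were higher and 5 lower, while 18.2% of assessed genes were higher and 19.8% lower. When libraries were scaled by their totals, 11 members were higher and 4 lower, while 14.65% of assessed genes were higher and 23.2% lower.

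**Figure D1:**
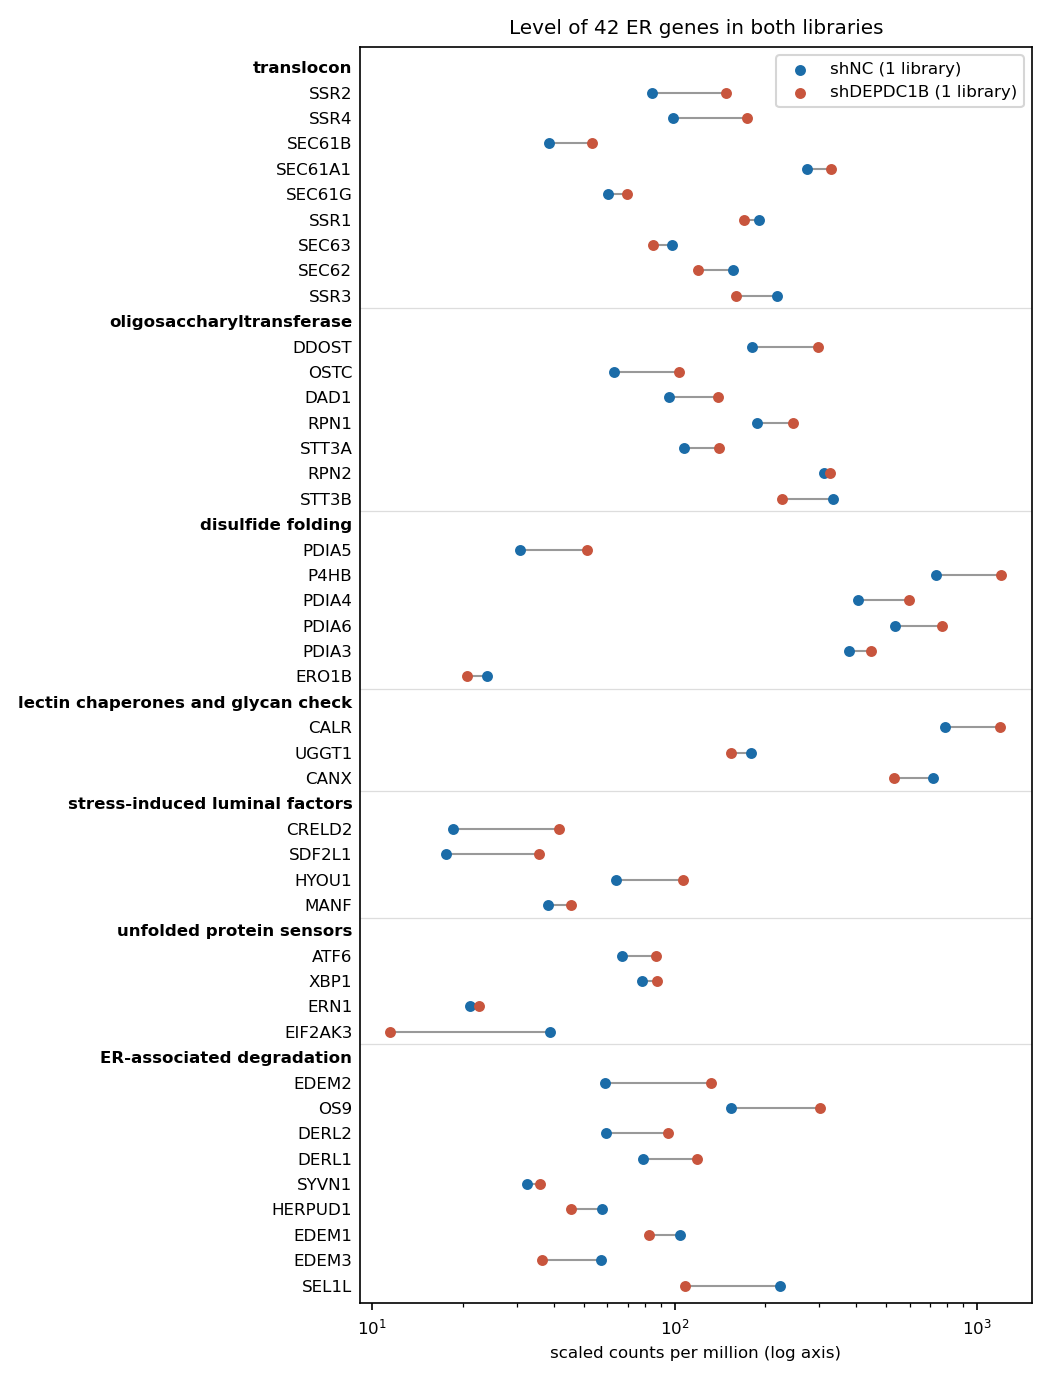
Scaled CPM (log axis) of the 42 ER genes in the shNC library (blue) and the shDEPDC1B library (red), 1 library each, grouped by role and ordered within a role by log2 ratio. P4HB and CALR are the most abundant members in both libraries, and EIF2AK3 shows the widest gap, from 38.7 to 11.5 CPM.

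**Figure D2:**
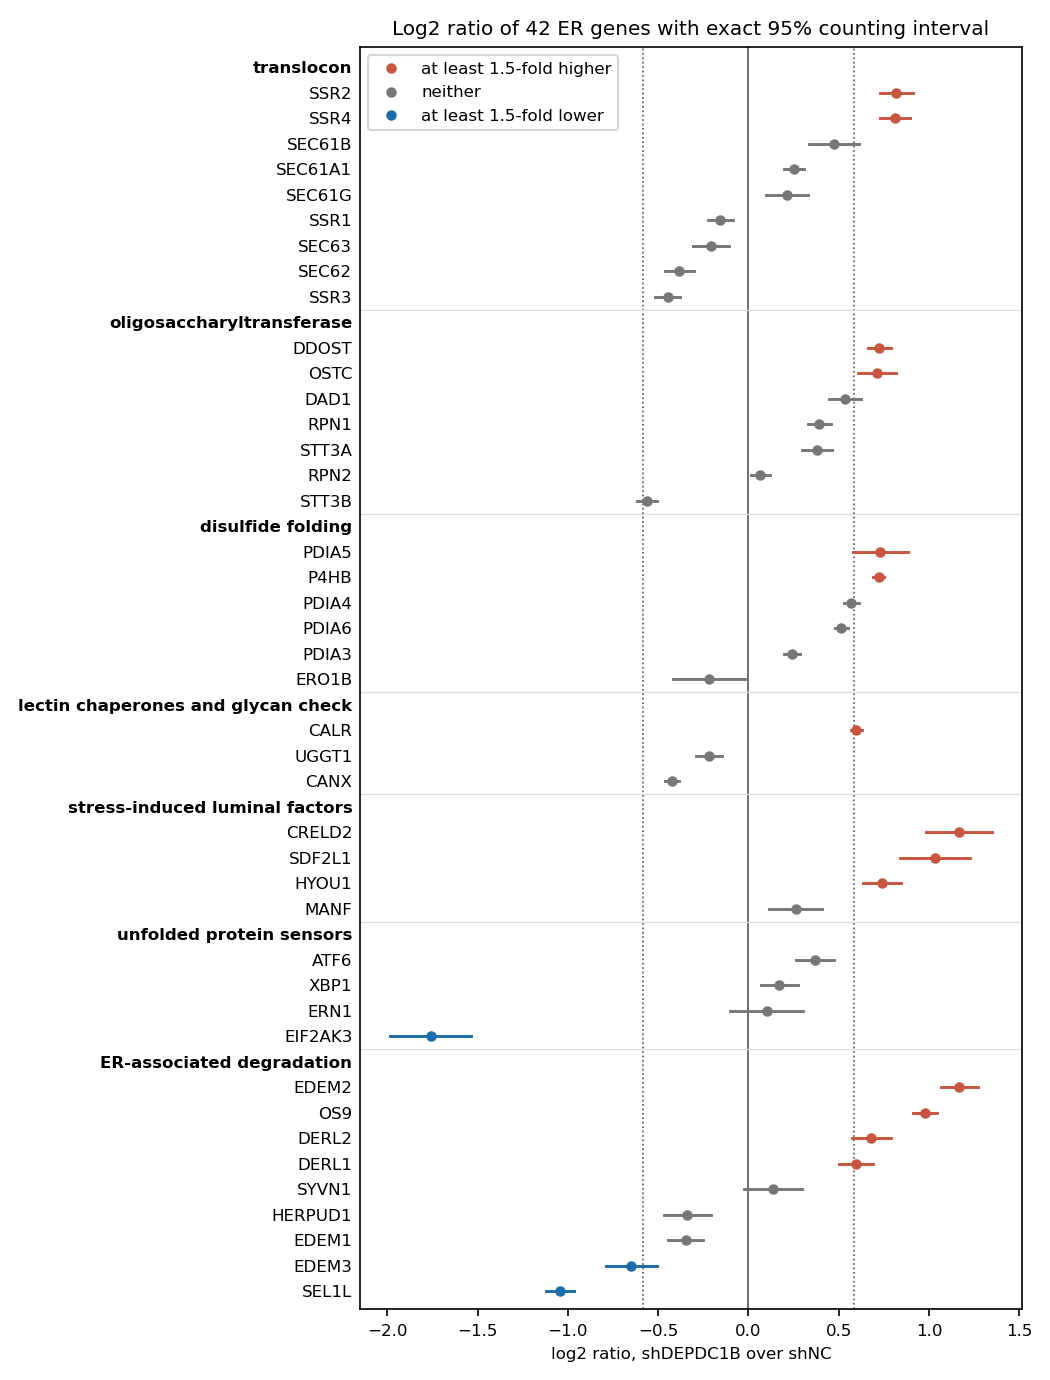
Log2 ratio of shDEPDC1B over shNC for the 42 ER genes, with exact 95% counting intervals (bars), equality (solid line) and 1.5-fold (dotted lines). The 14 genes in red were called higher, the 3 in blue lower, and the 25 in grey neither.

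The ratios moved with transcript length and base composition, and this touches every result below. Across the 42 members the Spearman correlation of the log2 ratio was -0.64 with the length of the longest coding transcript and 0.68 with its GC content, a description over genes that share the same 2 libraries. Over 13013 assessed genes with a known length the values were -0.51 and 0.38. Of 23 members at or below the median length of assessed genes (3405 nucleotides), 12 were higher and 0 lower, a share of 52.2% higher where all genes of that length had 30.3%. Of the 19 longer members 2 were higher (HYOU1 and DERL2) and 3 lower, shares of 10.5% and 15.8% where all longer genes had 7.78% and 30.5%. For this reason each member's log2 ratio is also given after a linear fit on length and GC over all assessed genes was subtracted, and is called the adjusted log2 ratio. After this adjustment 8 members were higher and 1 lower, against 12.9% and 13.5% of all genes so adjusted. The 8 were EDEM2, OS9, DERL1, DERL2, HYOU1, CRELD2, and additionally ATF6 and STT3A, and the lower gene was EIF2AK3. What part transcript length plays in the differences was not tested. The longest annotated transcript need not be the one expressed, and which form the cells express was not tested either.

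**Figure D3:**
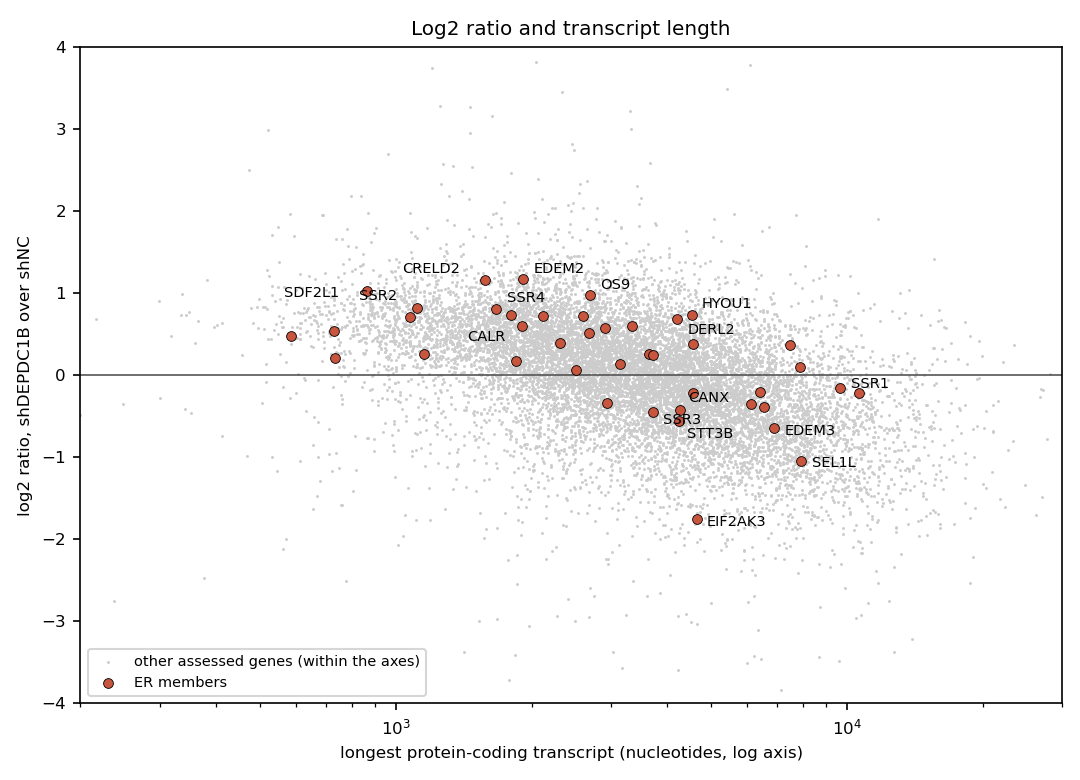
Log2 ratio of shDEPDC1B over shNC against the length of the longest protein-coding transcript (log axis) for the 42 ER genes (red) and the other assessed genes within the axes (grey). Short members such as SDF2L1 and SSR2 lie above 0 and long ones such as SEL1L and EDEM3 below it, while EIF2AK3 lies below and HYOU1 and DERL2 above most genes of their length.

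In the translocon, the entry channel and its partners, 2 of 9 genes were higher (22.2%, near the background of 19.2%). None was lower (background 19.6%), and the median log2 ratio was 0.21. The summed counts of the 9 genes were 23501 in shNC and 23862 in shDEPDC1B, a scaled ratio of 1.07. SEC61A1, the pore-forming subunit, had 5311 counts in shNC and 5988 in shDEPDC1B, a log2 ratio of 0.25 [0.20, 0.31]. The small subunit SEC61B had 741 and 974 counts (0.47 [0.33, 0.61]), and SEC61G 1161 and 1273 (0.21 [0.10, 0.33]). All 3 channel subunits thus lay within 1.5-fold of the control library, with SEC61B and SEC61G below 0 after adjustment (-0.21 and -0.39) and SEC61A1 above it (0.22). SEC62, which with SEC63 serves post-translational entry, had 3006 and 2182 counts, a log2 ratio of -0.38 [-0.46, -0.30]. SEC63, a J-domain protein, had 1886 and 1546, a log2 ratio of -0.21 [-0.30, -0.11]. Both of these long transcripts were above 0 after adjustment, at 0.17 and 0.28.

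The 4 subunits of the translocon-associated protein complex, SSR1 to SSR4, split into pairs. SSR2 had 1620 counts in shNC and 2704 in shDEPDC1B (84.0 and 148.2 CPM), a log2 ratio of 0.82 [0.73, 0.91]. SSR4 had 1910 and 3170 counts (99.1 and 173.8 CPM), a log2 ratio of 0.81 [0.73, 0.89]. SSR1 had 3658 and 3106 counts (-0.16 [-0.23, -0.09]) and SSR3 4208 and 2919 (-0.45 [-0.52, -0.38]). The higher pair has the shorter transcripts, 1116 nucleotides for SSR2 and 1671 for SSR4, against 9669 for SSR1 and 3716 for SSR3. After adjustment SSR1 was at 0.48, SSR2 at 0.32, SSR4 at 0.27 and SSR3 at -0.20, so no subunit passed 1.5-fold and SSR3 was the one below 0.

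Among the oligosaccharyltransferase subunits 2 of 7 were higher (28.6%, background 19.2%) and none lower (background 19.6%). The median log2 ratio was 0.39. DDOST, a shared non-catalytic subunit, had 3490 counts in shNC and 5460 in shDEPDC1B (181.0 and 299.3 CPM), a log2 ratio of 0.73 [0.66, 0.79], adjusted 0.46. DAD1, another shared subunit, had 1853 and 2541 counts (0.54 [0.45, 0.62]). Of the ribophorins, RPN1 had 3614 and 4491 counts (0.39 [0.33, 0.46], adjusted 0.23), while RPN2 had 6027 and 5965 (0.06 [0.01, 0.12]), and the sign of RPN2 turned when libraries were scaled by their totals (-0.03) or the expression trend was subtracted. The 4 shared subunits thus lay at or above the control level, though DAD1 and RPN2 were both at -0.08 after adjustment.

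The catalytic subunits STT3A and STT3B, which work in separate forms of the enzyme, lay on opposite sides of equality. STT3A, which glycosylates chains as they leave the channel, had 2072 counts in shNC and 2551 in shDEPDC1B, a log2 ratio of 0.38 [0.30, 0.46]. STT3B, which acts on sites that were skipped, had 6443 and 4130 counts (334.2 and 226.4 CPM), a log2 ratio of -0.56 [-0.62, -0.51]. STT3B was 1.48-fold lower, just inside the 1.5-fold line, and was called lower when libraries were scaled by their totals or by DESeq2 size factors, or with the expression trend subtracted. The share of STT3A in the counts of the pair was 24.3% [23.4, 25.3] in shNC and 38.2% [37.0, 39.4] in shDEPDC1B, a comparison that does not depend on library scaling. Their longest coding transcripts are of similar length (4558 and 4248 nucleotides), and after adjustment STT3A was at 0.64 and STT3B at -0.29. OSTC, a subunit of the STT3A form, had 1218 and 1890 counts (0.71 [0.61, 0.82], adjusted 0.44). KRTCAP2, another subunit, not among the 42 and picked for mention after its value was seen, had 447 and 699 (0.72 [0.55, 0.90]). Unlike OSTC, KRTCAP2 was at -0.15 [-0.32, 0.03] after adjustment, an interval that holds equality. MAGT1, an oxidoreductase subunit of the STT3B form that is not among the 42, had 3099 and 1757 counts (-0.74 [-0.82, -0.65], adjusted -0.47). Its paralog TUSC3, picked for mention after its value was seen, had 1348 and 1847 (0.53 [0.43, 0.64], adjusted 0.81), the opposite side from MAGT1.

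**Figure D4:**
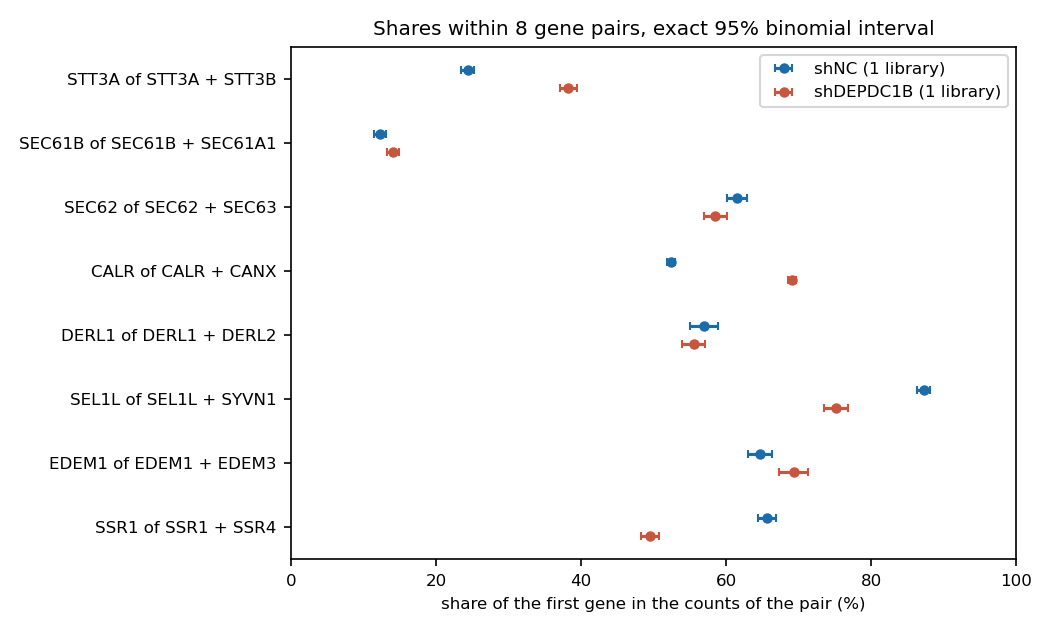
Share of the first gene in the summed counts of 8 gene pairs (percent), in shNC (blue) and shDEPDC1B (red), 1 library each, with exact 95% binomial intervals. The intervals of 6 pairs do not overlap, with the widest gaps for CALR with CANX, SSR1 with SSR4, STT3A with STT3B and SEL1L with SYVN1. Those of DERL1 with DERL2 overlap, and those of SEC62 with SEC63 do so only narrowly. The share of such pairs among other genes was not computed. Most single-gene intervals, an unlike measure, also lay off equality (38.9% above, 34.9% below), so the count of 6 is not a result about these pairs. Shares keep the length and GC trend. After adjustment the order turned for SSR1 (0.48) with SSR4 (0.27) and for SEC61B (-0.21) with SEC61A1 (0.22).

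Of the 6 disulfide folding genes 2 were higher (33.3%, background 19.2%) and none lower (background 19.6%). The median log2 ratio was 0.54. All 5 protein disulfide isomerases, which form and rearrange disulfide bonds, had ratios above 1. P4HB, the archetype of the family, had 14105 counts in shNC and 22024 in shDEPDC1B (731.6 and 1207.3 CPM), a log2 ratio of 0.72 [0.69, 0.75]. PDIA5 had 595 and 934 counts (30.9 and 51.2 CPM) (0.73 [0.58, 0.88]). PDIA4 had 7781 and 10931 counts (0.57 [0.53, 0.61]) and at 1.48-fold lay just under the threshold, followed by PDIA6 with 10353 and 13993 counts (0.51 [0.48, 0.55]). PDIA3, the isomerase that works with the lectin chaperones, had 7259 and 8123 (0.24 [0.20, 0.29]). After adjustment the 5 isomerases lay between 0.41 (PDIA3) and 0.51 (PDIA6), all positive and none past 1.5-fold, so that P4HB and PDIA5 were no longer called. P4HB was also not called with the expression trend subtracted. ERO1B, an oxidase that recharges the isomerases, had 461 and 375 counts, a log2 ratio of -0.22 [-0.42, -0.02] and an adjusted value of 0.17. The summed counts of the 6 genes were 40554 and 56380, a scaled ratio of 1.47.

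The lectin chaperones calreticulin and calnexin, which bind the same monoglucosylated glycans, also lay on opposite sides. CALR, the soluble one, had 15188 counts in shNC and 21739 in shDEPDC1B (787.7 and 1191.6 CPM), a log2 ratio of 0.60 [0.57, 0.63]. CANX, the membrane-bound one, had 13799 and 9735 counts (715.7 and 533.6 CPM), a log2 ratio of -0.42 [-0.46, -0.39]. The share of CALR in the counts of the pair was 52.4% [51.8, 53.0] in shNC and 69.1% [68.6, 69.6] in shDEPDC1B. After adjustment CALR (1903 nucleotides) was at 0.29 and CANX (4260 nucleotides) at -0.15. At 1.51-fold CALR was among the members just past the threshold, and under DESeq2 size factors, library totals, upper-quartile factors, protein-coding TMM factors and all 3 trend corrections it was not called. UGGT1, the glucosyltransferase that recognises misfolded glycoproteins, had 3441 and 2797 counts (-0.22 [-0.29, -0.15]), and its transcript of 10650 nucleotides put it at 0.38 after adjustment.

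Of 4 stress-induced luminal factors 3 were higher (75.0%, background 19.2%), and the median log2 ratio was 0.89. CRELD2 (chromosome 22, 49918167 to 49927540, GRCh38), a secreted and luminal protein with isomerase-like activity, had 357 counts in shNC and 757 in shDEPDC1B (18.5 and 41.5 CPM). Its log2 ratio was 1.16 [0.98, 1.35] and 0.64 after adjustment. SDF2L1 (chromosome 22, 21642261 to 21644298), a partner of ER J-proteins, had 337 and 652 counts (17.5 and 35.7 CPM), a log2 ratio of 1.03 [0.84, 1.23]. With 865 nucleotides and 65.5% GC, SDF2L1 was at 0.16 [-0.03, 0.35] after adjustment, an interval that holds equality. HYOU1 (chromosome 11, 119044189 to 119057202), a large Hsp70-related chaperone and exchange factor, had 1233 and 1947 counts (64.0 and 106.7 CPM), with a log2 ratio of 0.74 [0.64, 0.84] and an adjusted value of 0.77. The deposited HYOU1 value in shDEPDC1B is not a whole hundredth, the only such case among the members, and its counting interval is uncertain. MANF, a neurotrophic factor retained in the ER, had 734 and 832 counts (0.26 [0.12, 0.41]) and lay at -0.27 after adjustment.

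Many genes of ER stress are controlled by ATF6 and XBP1 through the ER stress response element ERSE, which is CCAAT and CCACG with 9 bases of any kind between them, through ERSE-II, which is ATTGG and CCACG with 1 base of any kind between them, or through the unfolded protein response element UPRE (TGACGTGG). These letters were searched on both strands in promoters of 300 bases, 250 before and 50 after the start site, from RefSeq (GRCh38.p14), which held 38 of the 42 members (RPN1, STT3B, PDIA3 and DERL1 had no entry). ERSE was found in 5 members (13.2% of those matched, 0.0806% of all 27305 promoters), ERSE-II in 3 (7.89%, 0.0549%) and UPRE in 2 (5.26%, 0.795%). The windows with an ERSE or ERSE-II are shown because they let the ratios of genes with the same element be set side by side. They read 5′ to 3′ along the gene with the element in capitals, and most carry it as the reverse complement, which begins with CGTGG.
CRELD2, ERSE, chr22:49918542-49918584 (+): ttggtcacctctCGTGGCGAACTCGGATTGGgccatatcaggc
CALR, ERSE, chr19:12938372-12938414 (+): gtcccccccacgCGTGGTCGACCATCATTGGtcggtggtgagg
XBP1, ERSE, chr22:28800591-28800633 (-): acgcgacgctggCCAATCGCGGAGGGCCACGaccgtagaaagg
ERO1B, ERSE, chr1:236282171-236282208 (-): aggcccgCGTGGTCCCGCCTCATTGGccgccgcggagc
CANX, ERSE, chr5:179698766-179698808 (+): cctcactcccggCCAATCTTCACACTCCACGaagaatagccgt
SDF2L1, ERSE-II, chr22:21642102-21642136 (+): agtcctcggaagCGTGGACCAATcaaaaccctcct
HYOU1, ERSE-II, upstream copy, chr11:119057368-119057402 (-): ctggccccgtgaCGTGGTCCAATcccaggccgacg
HYOU1, ERSE-II, downstream copy, chr11:119057262-119057296 (-): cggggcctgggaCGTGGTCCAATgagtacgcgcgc
HERPUD1, ERSE-II, chr16:56932013-56932047 (+): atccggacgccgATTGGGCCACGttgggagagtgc

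The 8 genes with an ERSE or ERSE-II did not share a direction. CRELD2 (1.16), SDF2L1 (1.03), HYOU1 (0.74) and CALR (0.60) were called higher, XBP1 was at 0.17, and ERO1B (-0.22), HERPUD1 (-0.34) and CANX (-0.42) had log2 ratios below 0 within 1.5-fold. Their median was 0.38, beside 0.37 for the 29 matched members with none of the 3 elements. Of those 29, 9 were higher and 3 lower, while 19.2% of all assessed genes were higher and 19.6% lower. The UPRE letters lay in the HYOU1 promoter, where they overlap the upstream ERSE-II, and in that of SEC62. A match of letters is a description of the window and not a measured binding site.

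Among the 4 sensor genes none was higher (background 19.2%) and 1, EIF2AK3, was lower (25%, background 19.6%). EIF2AK3 (chromosome 2, 88556741 to 88627576, minus strand), which encodes the kinase PERK that slows translation by phosphorylating eIF2alpha, had 747 counts in shNC and 209 in shDEPDC1B (38.7 and 11.5 CPM). Its log2 ratio was -1.76 [-1.99, -1.53], which leaves 29.6% [25.2, 34.5] of the control level and placed it at rank 262 from the lowest of 13850 assessed genes. The adjusted value was -1.51 [-1.73, -1.28], and EIF2AK3 was called lower under each of the 11 other scalings, filters and corrections. ATF6, the precursor of a transcription factor released by cleavage, had 1296 and 1583 counts (0.37 [0.26, 0.48]), and was at 0.88 after adjustment for its 7496 nucleotides. ERN1, which encodes the kinase and nuclease IRE1, had 405 and 411 counts, with an interval that holds equality (0.10 [-0.10, 0.30]). After adjustment for 7876 nucleotides ERN1 was at 0.45 [0.25, 0.65], and after a loess on length at 0.61, where it was called higher. XBP1 had 1505 and 1602 counts (0.17 [0.07, 0.27]) and turned to -0.08 after adjustment, and counts per gene do not separate its spliced from its unspliced form. Before adjustment the 3 other sensor genes lay within 1.5-fold of control, while EIF2AK3 was 3.38-fold lower.

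The 9 ERAD genes went both ways, with 4 higher (44.4%, background 19.2%) and 2 lower (22.2%, near the background of 19.6%). The median log2 ratio was 0.14. Of the mannose-trimming EDEM proteins, which mark glycoproteins for removal, EDEM2 (chromosome 20, 35115357 to 35147364) had 1137 counts in shNC and 2418 in shDEPDC1B (59.0 and 132.6 CPM). Its log2 ratio of 1.17 [1.07, 1.27] was the highest of the 42 and was 0.85 after adjustment. EDEM3 had 1100 and 664 counts (57.1 and 36.4 CPM), a log2 ratio of -0.65 [-0.79, -0.51]. EDEM1 had 2016 and 1499 counts (-0.35 [-0.45, -0.25]). EDEM2, with a transcript of 1919 nucleotides, thus lay apart from its paralogs with 6146 (EDEM1) and 6898 (EDEM3), which were at 0.01 and -0.11 after adjustment, and EDEM3 was then no longer called.

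OS9 (chromosome 12, 57693955 to 57721557), a lectin that delivers trimmed glycoproteins to the ubiquitin ligase, had 2957 counts in shNC and 5512 in shDEPDC1B (153.4 and 302.2 CPM). Its log2 ratio was 0.98 [0.91, 1.04] and 0.80 after adjustment. DERL1 and DERL2, membrane proteins of the exit channel, had similar ratios. DERL1 had 1518 and 2168 counts (0.59 [0.50, 0.69], adjusted 0.70) and DERL2 had 1146 and 1738 (0.68 [0.57, 0.79], adjusted 0.99). The share of DERL1 in their summed counts was 57.0% [55.1, 58.9] in shNC and 55.5% [53.9, 57.1] in shDEPDC1B, a difference that was not detectable at this depth. DERL1 at 1.51-fold was just past the threshold and was not called under 4 other scalings (DESeq2 size factors, totals, upper quartile, protein-coding TMM) or after a loess on length, and DERL2 was not called when scaled by totals.

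SEL1L (chromosome 14, 81471549 to 81533861), the adaptor that holds the ligase complex together, had 4295 counts in shNC and 1974 in shDEPDC1B (222.8 and 108.2 CPM). Its log2 ratio was -1.04 [-1.12, -0.96], and -0.47 [-0.54, -0.39] after adjustment for a transcript of 7925 nucleotides, where it was no longer called. Its partner SYVN1, the ubiquitin ligase HRD1, had 627 and 653 counts, with an interval that holds equality (0.14 [-0.02, 0.30]), and an adjusted value of -0.06. The share of SEL1L in the counts of this pair was 87.3% [86.3, 88.2] in shNC and 75.1% [73.4, 76.8] in shDEPDC1B. HERPUD1, a stress-induced component of the same complex, had 1106 and 828 counts (-0.34 [-0.47, -0.21], adjusted -0.35). The lectin OS9 and the derlins were thus higher while the adaptor SEL1L was lower and the ligase gene was level within counting error.

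Levels of different genes were compared per length, as CPM per kilobase of the longest coding transcript. CALR was highest in both libraries (413.9 in shNC and 626.2 in shDEPDC1B), followed by P4HB (281.1 and 463.8) and PDIA6 (200.2 and 286.0). At the low end ERN1 was at 2.67 and 2.86, and EIF2AK3 went from 8.34 in shNC to 2.47 in shDEPDC1B, below ERN1. The 42 genes took 0.771% [0.767, 0.775] of all counts in shNC and 0.885% [0.881, 0.890] in shDEPDC1B. CALR and P4HB made up 20.4% of the members' counts in shNC and 26.2% in shDEPDC1B.

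Other genes of the pathway were taken from 9 neighbouring lists. Of their 150 assessed genes 39 were higher (26.0%, background 19.2%) and 16 lower (10.7%, background 19.6%). The median log2 ratio was 0.29. Glycan trimming and other folding genes had 12 of 27 higher (44.4%, background 19.2%) and 2 lower (7.41%, background 19.6%). After adjustment fewer genes of this list were higher, beside a background that also fell, to 12.9%. PPIB, an ER prolyl isomerase, had 4025 counts in shNC and 10807 in shDEPDC1B and was 2.84-fold higher (log2 interval 1.45 to 1.56, adjusted 0.87), and SIL1, an exchange factor for the ER Hsp70, had 830 and 1633 (1.06 [0.93, 1.18], adjusted 0.66). The glucose-binding lectin MLEC had 7652 and 3075 counts (-1.24 [-1.30, -1.17], adjusted -0.95) and the oxidoreductase TMX3 1809 and 835 (-1.04 [-1.16, -0.92], adjusted -0.60). In the synthesis of the lipid-linked glycan 7 of 27 genes were higher (25.9%, background 19.2%) and 1 lower (3.70%, background 19.6%). The mannosyltransferase ALG3 had 731 and 1612 counts (1.22 [1.09, 1.35], adjusted 0.83) and DPM3, a subunit of dolichol-phosphate mannose synthase, had 81 and 187 (1.29 [0.90, 1.68]). DPM3 was at 0.30 [-0.09, 0.69] after adjustment and no longer called. ALG11, which adds mannose on the cytosolic face, was the lower one with 318 and 79 counts (-1.93 [-2.30, -1.57], adjusted -1.73).

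Other oligosaccharyltransferase subunits had 3 of 5 higher (60.0%, background 19.2%), with the small subunits TMEM258 at 0.87 [0.70, 1.03] and OST4 at 0.70 [0.62, 0.79]. After adjustment they were at 0.57 and -0.15, and neither was called, nor was MAGT1. The ER membrane protein complex, an insertase, had 5 of 10 higher (50.0%, background 19.2%) and 1 lower (10.0%, background 19.6%). The 2 higher genes with the interval bounds farthest from equality were EMC9 (1.13 [0.79, 1.48], whose deposited value is not a whole hundredth) and EMC7 (0.85 [0.77, 0.94]), and MMGT1 was lower (-0.69 [-0.83, -0.54]). After adjustment these 3 were at 0.36, 0.46 and -0.42 and no longer called. EMC10, picked for mention after its value was seen, was at 0.90 [0.76, 1.04] and 1.23 after adjustment. That adjustment uses a longest coding transcript of 9446 nucleotides, and whether the cells express this form was not tested. Other ERAD genes had 6 of 26 higher (23.1%, near the background of 19.2%) and 1 lower (3.85%, background 19.6%). AUP1, a lipid droplet and ERAD factor, was at 0.72 [0.64, 0.79], the membrane protein UBXN8 at 0.69 [0.48, 0.90] and the shuttle factor RAD23B at -0.80 [-0.87, -0.73]. After adjustment AUP1 (0.24), UBXN8 (0.53) and RAD23B (-0.56) were no longer called.

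Upstream of the channel, 1 of 8 genes of the signal recognition particle and its receptor was higher (SRPRA, 0.69 [0.60, 0.78], adjusted 0.62) and 1 lower (SRP72, -1.24 [-1.35, -1.13], adjusted -0.95). Among signal peptidase and other translocon partners 1 of 9 was higher (SEC11C, 0.60 [0.45, 0.75]) and 2 lower (TRAM2, -1.18 [-1.31, -1.05], and SEC61A2, -0.62 [-0.87, -0.39]). After adjustment these were at 0.59, -0.86 and -0.66. Other sensors and their processing had 2 of 12 higher (WFS1, 0.71 [0.56, 0.86], and CREB3, 0.62 [0.49, 0.74]) and 1 lower. After adjustment WFS1 (0.52) and CREB3 (0.24) were no longer called. The lower gene was CREB3L2, a transcription factor cleaved like ATF6, with 1846 and 531 counts (-1.72 [-1.86, -1.58], adjusted -1.34). In the order given, the shares of higher genes in these lists were 12.5%, 11.1% and 16.7% (background 19.2%). The shares of lower genes were 12.5%, 22.2% and 8.33% (background 19.6%).

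The last list holds genes of export from the ER. Of its 26 genes, which serve COPII vesicles and retrieval, 2 were higher (7.69%, background 19.2%) and 6 lower (23.1%, near the background of 19.6%). The median log2 ratio was 0.00. The higher genes were LMAN2 (0.87 [0.81, 0.93]) and PREB (0.60 [0.50, 0.70]). After adjustment LMAN2 (0.43) and PREB (0.25) were no longer called. The cargo receptor LMAN1 had 3741 and 1504 counts (-1.23 [-1.32, -1.15], adjusted -0.82). The cargo receptor SURF4 had 2253 and 783 (-1.44 [-1.56, -1.33], adjusted -1.54), with deposited values that are not whole hundredths and an interval that is therefore uncertain. The LMAN1 and LMAN2 lectins, both of which carry glycoproteins toward the Golgi, lay on opposite sides of equality.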

How the data were processed

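The table of estimated counts per gene symbol was deposited by the authors for 2 libraries, 1 per group, and per the submitters' processing notes comes from Bowtie2 and RSEM on hg38, with no version, annotation or strand setting stated there. Groups were taken from the treatment label. RSEM shares reads that match several genes, so genes with near copies carry an error outside the intervals; 6 members have a pseudogene named after them. The counts were rounded and scaled with TMM factors from edgeR 4.0.16 (1.03 for shNC and 0.967 for shDEPDC1B) in R 4.3.3. Intervals are exact Clopper-Pearson 95% intervals of the fraction of each gene's counts found in shDEPDC1B. Without molecular identifiers they cover counting error only. With 1 library per group no test could be run.

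Length and GC are those of the longest coding transcript in GENCODE 29, whose GRCh38 gene coordinates are printed; a linear fit on log2 length and GC took up 24.6% of the variance of the log2 ratio. Lists, pairs and the naming rule (all members, and up to 2 higher and 2 lower genes of each neighbouring list by the interval bound nearest to equality) were written down with earlier results of these data known, as were the members. TUSC3, EMC10, ERO1A and KRTCAP2 were named outside the rule. Promoter motifs were also chosen after the counts had been seen. The interval and calling steps were run on counts simulated with counting error alone and set fold changes. This checks the code only, as the simulation holds no culture or library variation and no length trend. Alternatives covered scaling (with DESeq2 1.42.0 size factors among them), count filters, fold thresholds, a prior count of 2, length, GC and expression trends and unrounded counts.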

Additional observations from a re-analysis of the deposited data

How the results depend on the processing

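The median log2 ratio of the 42 genes, 0.31 as reported, stayed above 0 under all 11 alternatives that give a median and was 0.22 when libraries were scaled by their totals. The 14 higher and 3 lower members became 8 and 1 after the length and GC fit and 7 and 1 after a loess on length. Of the original 14, 6 and 5 were then still higher. The background also changed, to 12.9% higher and 13.5% lower after the fit and to 12.9% and 15.0% after the loess. With the trend on mean expression subtracted 5 members were lower (background 19.8%). At 2-fold 3 were higher (background 5.86%), and with any fold whose interval excludes equality 27 were higher and 13 lower (background 38.9% and 34.9%). No called member changed sign under any alternative. Counts of the neighbouring lists and pair shares from unrounded counts were added after the data were seen. Scaling by totals gave 3 higher genes in the ER membrane protein complex in place of 5, with a background of 14.65% in place of 19.2%. The length and GC fit gave 7 higher folding genes in place of 12, not all of them among the 12. Its background was 12.9% in place of 19.2%. No paired analysis was possible because each group has 1 library, and for the same reason no library could be left out. Counting error was small beside these shifts (a median of 0.09 from a member's log2 ratio to the end of its interval), and culture and library variation cannot be told apart from the hairpin.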
